A study of Mus musculus with 45 samples.

Results

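Inhibitory immune receptors were followed in mouse microglia and brain tissue through 10 genes: Lair1, Pirb, Lilrb4a, Lilra5, Cd200r1, Sirpa, Cd33, Cd300lf, Cd300a and Clec12a, out of 55450 genes in the slice microglia table, 47643 in the adult microglia table and 43411 in the brain tissue table. They were chosen by name from receptor families that hold inhibitory members, with the measured changes of these same libraries already known (Lair1 for its lower level after GM-CSF), so that every level, fold change and call of a member below is a description and carries no p-value. All 10 had a row in the slice table and 9 had one in each of the other 2 tables, Lilrb4a being the exception.

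RNA-seq libraries of 45 samples from C57BL/6 mice were read in 7 groups. Microglia sorted as live CD11b high, CD45 intermediate cells came from organotypic brain slices (cut from newborn pups and kept 2 weeks in culture, with 2 or 3 slices pooled for a library) given medium alone (n = 9), TNF at 50 ng/mL (n = 11) or GM-CSF at 20 ng/mL (n = 9) for 24 hours. The same sort was applied to brains of adult female mice aged 10 to 15 weeks, 24 hours after PBS (n = 4) or after LPS injected into the peritoneum at 1 mg/kg (n = 4), and whole brain tissue was taken from untreated (n = 4) and LPS-treated (n = 4) mice of that age. The brain tissue control was not injected, whereas the microglia control received PBS, and no group carried a transgene or a deleted gene. Slice microglia developed from neonatal tissue cut and cultured in serum and are a culture model, and pooled slices do not show the spread between single slices.

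Many inhibitory receptors of myeloid cells, though not all, carry tyrosine motifs in their cytoplasmic tails that, once phosphorylated by Src-family kinases, recruit phosphatases such as SHP-1 and SHIP-1 and dampen signals of activating receptors. LAIR1 binds collagens and C1q, PIR-B binds MHC class I molecules and myelin-associated proteins, SIRP alpha binds the widely expressed CD47, and CD200R1 binds CD200, which neurons display. CD33 binds sialic acids, while CD300a and CD300LF bind lipids exposed on dying cells.

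The promoters of the members are shown first because the receptors below moved in opposite directions even within 1 gene cluster. RefSeq promoters on build GRCm38.p6 matched 7 of the 10 members, and the 250 bases before the start are printed for Lair1 (lower with GM-CSF), Pirb (higher with TNF and LPS and lower with GM-CSF), and the CD300 cluster genes of chromosome 11, Cd300lf (higher) and Cd300a (lower with TNF and LPS). Capitals mark matches, on either strand, to 5 motifs: PU.1 as GAGGAA, IRF as AANNGAAA, GAS (the STAT element) as TTCNNNGAA, AP-1 as TGANTCA, and NF-kB.
Lair1, chr7:4063205-4063454, minus strand: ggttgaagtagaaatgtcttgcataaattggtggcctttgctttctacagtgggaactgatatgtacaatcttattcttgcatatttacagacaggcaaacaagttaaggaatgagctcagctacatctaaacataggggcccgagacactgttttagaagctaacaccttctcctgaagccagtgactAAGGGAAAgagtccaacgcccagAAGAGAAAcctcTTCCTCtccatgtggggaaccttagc
Pirb, chr7:3720383-3720632, minus strand: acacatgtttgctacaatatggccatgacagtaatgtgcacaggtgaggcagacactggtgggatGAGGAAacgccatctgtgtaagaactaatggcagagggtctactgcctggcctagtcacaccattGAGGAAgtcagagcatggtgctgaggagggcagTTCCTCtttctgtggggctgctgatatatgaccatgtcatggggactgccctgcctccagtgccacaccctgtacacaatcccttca
Cd300lf, chr11:115133993-115134242, minus strand: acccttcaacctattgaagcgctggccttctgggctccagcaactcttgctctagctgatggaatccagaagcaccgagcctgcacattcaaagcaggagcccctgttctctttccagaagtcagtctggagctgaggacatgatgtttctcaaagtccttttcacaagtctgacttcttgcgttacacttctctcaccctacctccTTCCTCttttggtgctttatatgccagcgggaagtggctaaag
Cd300a, chr11:114889791-114890040, plus strand: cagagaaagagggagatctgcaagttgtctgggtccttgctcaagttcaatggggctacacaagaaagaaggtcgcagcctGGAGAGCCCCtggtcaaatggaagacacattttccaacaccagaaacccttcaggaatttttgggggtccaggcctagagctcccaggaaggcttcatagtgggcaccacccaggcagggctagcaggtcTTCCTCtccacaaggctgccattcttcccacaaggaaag
The PU.1 letters stood in 7 of the 7 member promoters and in 23.3% of all 32841 promoters of this length. The IRF letters stood in 2 of 7 (Lair1 and Lilra5) and in 21.3% of all promoters, the GAS letters in 1 of 7 (Lilra5) against 7.02%, the AP-1 letters in 1 of 7 (Clec12a) against 6.75%, and the NF-kB letters in 1 of 7 (Cd300a) against 7.25%. In Lair1, 2 IRF matches began 61 and 38 bases before the start, with 1 PU.1 match 26 bases before it. The last IRF match ended 31 bases before the start, so it and the PU.1 match neither overlapped nor adjoined. These matches are descriptions of letters and not of bound sites.

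Levels are given as CPM, counts made comparable between libraries by edgeR's TMM scaling, and levels of different genes are compared only per kilobase of exon. Library totals ran from 5973364 to 9165485 counts for slice microglia, from 11391564 to 14216005 for adult microglia and from 8199863 to 10368578 for brain tissue. Summed markers of microglia were high in each sorted group (9246 to 23920 CPM in slices and 38170 to 59160 CPM in adult microglia), with all 8 detected in every group. These sums were 16730 to 23920 CPM in medium, 9246 to 12250 with TNF and 11890 to 13550 with GM-CSF, and 5 of the 8 were called lower with each cytokine. Of 6 monocyte and border macrophage markers tested in slices, 0 were called higher and 2 lower with TNF, and 0 and 1 with GM-CSF. Of 3 neutrophil markers tested, 2 were called higher with TNF and 0 with GM-CSF, at median log2 fold changes of 2.34 and 2.06. Summed neutrophil markers were at 0.834 to 15.8 CPM (median 2.38) in medium. With TNF they were at 3.57 to 128 (median 8.59) and with GM-CSF at 3.19 to 44.15 (median 10.8). The part of these markers in the receptor levels was not tested. In bulk libraries, fewer cells of a type and less RNA per cell cannot be told apart.

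Per kilobase, Sirpa was the most abundant member and Lair1 the second in control microglia of both kinds. In medium-treated slice microglia, Sirpa stood at 365 ± 63.5 CPM per kb (SD, n = 9), Lair1 at 97.9 ± 6.99, Cd300a at 29.3 ± 4.76 and Cd33 at 21.7 ± 3.37. The other 6 members averaged 3.52 (Cd300lf) to 9.20 (Cd200r1) CPM per kb. Sirpa did not overlap Lair1, Lair1 did not overlap Cd300a and Cd33 did not overlap Cd200r1, whereas Cd300a overlapped Cd33 and each neighbor from Cd200r1 down to Cd300lf overlapped the next in its library values.

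In adult microglia after PBS, the order per kilobase was Sirpa at 795 ± 45.4 (SD, n = 4), Lair1 at 140 ± 5.33, Cd33 at 67.2 ± 7.95, Cd300a at 57.8 ± 0.989, Lilra5 at 17.7 ± 2.55, Pirb at 10.6 ± 1.01, Cd200r1 at 8.14 ± 0.545, Cd300lf at 1.10 ± 0.325 and Clec12a at 0.0666 ± 0.0709 CPM per kb. Only Cd33 and Cd300a overlapped among neighbors in this order. Clec12a held 1 to 13 counts in each PBS library, against 137 to 670 counts in each medium-treated slice library. Summed monocyte and border macrophage markers were at 16.03 to 22.1 CPM in PBS libraries and 400 to 1112 CPM in medium-treated slice libraries. The part of these markers in the Clec12a levels was not tested. The slice and adult tables were prepared and normalized separately, so levels set side by side across them are not tested.

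**Figure D1:**
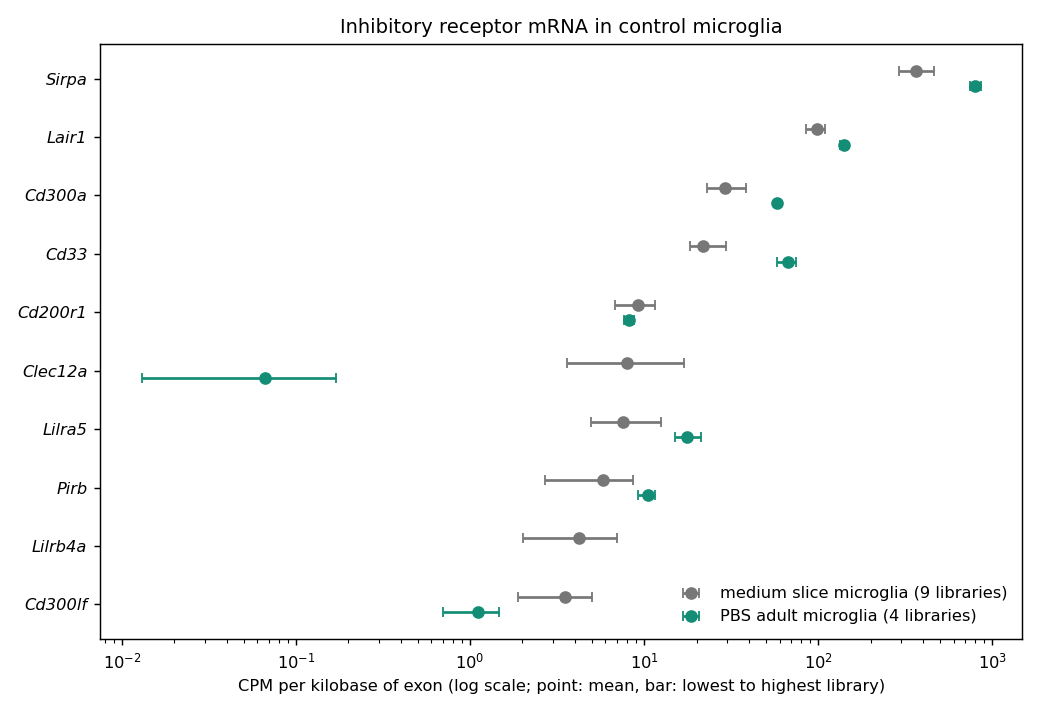
Level of each receptor mRNA in control microglia, as CPM per kilobase of exon on a log axis, with a point for the mean and a bar from the lowest to the highest library of medium-treated slice microglia (n = 9) and PBS adult microglia (n = 4). Sirpa and Lair1 lead both orders, and Clec12a is at 8.02 CPM per kb in slices but at 0.0666 in adult microglia.

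For the question of how the cytokine TNF alters microglia in slices, 10 members were tested and 3 were called higher and 2 lower, where a call means an adjusted p under 0.05 and a fold change over 1.5. Over all 11313 genes tested, 9.1% were called higher and 11.7% lower; the members were chosen with this contrast known, so nothing is read from their count. The median log2 fold change was 0.16 for the members and -0.03 for all genes tested.

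The LAIR and PIR family genes lie on chromosome 7 and split under TNF. Lair1, the collagen and C1q receptor (chr7:4003402-4063204), ran in medium from 635 to 820 CPM with a median of 739, and after TNF from 421 to 583 with a median of 511. All 11 TNF libraries lay below every medium library, by a log2 fold change of -0.54 ± 0.056 (SE), which is a 1.46-fold difference and under the fold limit, so Lair1 was not called. Pirb, the MHC class I and myelin protein receptor (chr7:3711409-3720391), ran from 12.01 to 38.5 CPM with a median of 26.1 in medium and from 28.3 to 72.0 with a median of 42.2 after TNF. Pirb rose by 0.77 ± 0.21 on the log2 scale (SE), with 6 of 11 TNF libraries above every medium library and the others within the medium range. Without the libraries of title code 1A (codes are described further on), Pirb was at 0.70 and no longer called. Pirb shares near-identical stretches with the activating PIR-A genes, and reads could be split between them.

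Lilrb4a, an immunoglobulin-like inhibitory receptor of myeloid cells (chr10:51490956-51496611), rose from a median of 22.6 CPM (10.5 to 36.3) to 33.6 (23.3 to 67.3), by 0.83 ± 0.21 (log2, SE). The groups overlapped, and 5 of 11 TNF libraries exceeded the medium range. In title codes 2A and 2B alone it was at 0.79 and no longer called. Lilra5, whose human counterpart activates cells through the Fc receptor gamma chain, was at 15.1 CPM in medium (10.4 to 26.3) and at 15.9 (10.8 to 23.8) with TNF as medians, with groups that overlapped throughout.

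Among receptors for ligands on neighboring cells, Sirpa fell by 0.63 on the log2 scale with TNF (SE 0.090). Its medium libraries ran from 1440 to 2280 CPM with a median of 1683, and its TNF libraries from 837 to 1472 with a median of 1176. Of 11 TNF libraries, 10 lay below every medium library. Cd200r1 was at a median of 30.4 CPM (22.9 to 38.7) in medium and 37.1 (26.1 to 56.8) with TNF and was not called.

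The lipid receptors of the CD300 cluster on chromosome 11 moved apart. Cd300lf (chr11:115116214-115133992) ran from 9.76 to 25.9 CPM with a median of 17.4 in medium and from 64.3 to 160 with a median of 103 after TNF. Cd300lf rose by 2.54 ± 0.15 (log2, SE), a 5.81-fold difference with no overlap between the groups. Cd300a (chr11:114890041-114904654) ran from 109 to 183 CPM in medium (median 131) and from 48.9 to 98.1 after TNF (median 71.5). It fell by 0.95 on the log2 scale (SE 0.10), again with no overlap.

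Of the lectins, Cd33, a sialic acid receptor, was at a median of 158 CPM in medium (143 to 230) and 129 with TNF (108 to 183), and 9 of 11 TNF libraries lay below every medium library at a log2 fold change of -0.34 ± 0.085 (SE), under the fold limit. Clec12a, a C-type lectin that recognizes uric acid crystals, spread widely, from 19.8 to 93.9 CPM in medium and from 25.9 to 125 with TNF, and was not called.

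**Figure D2:**
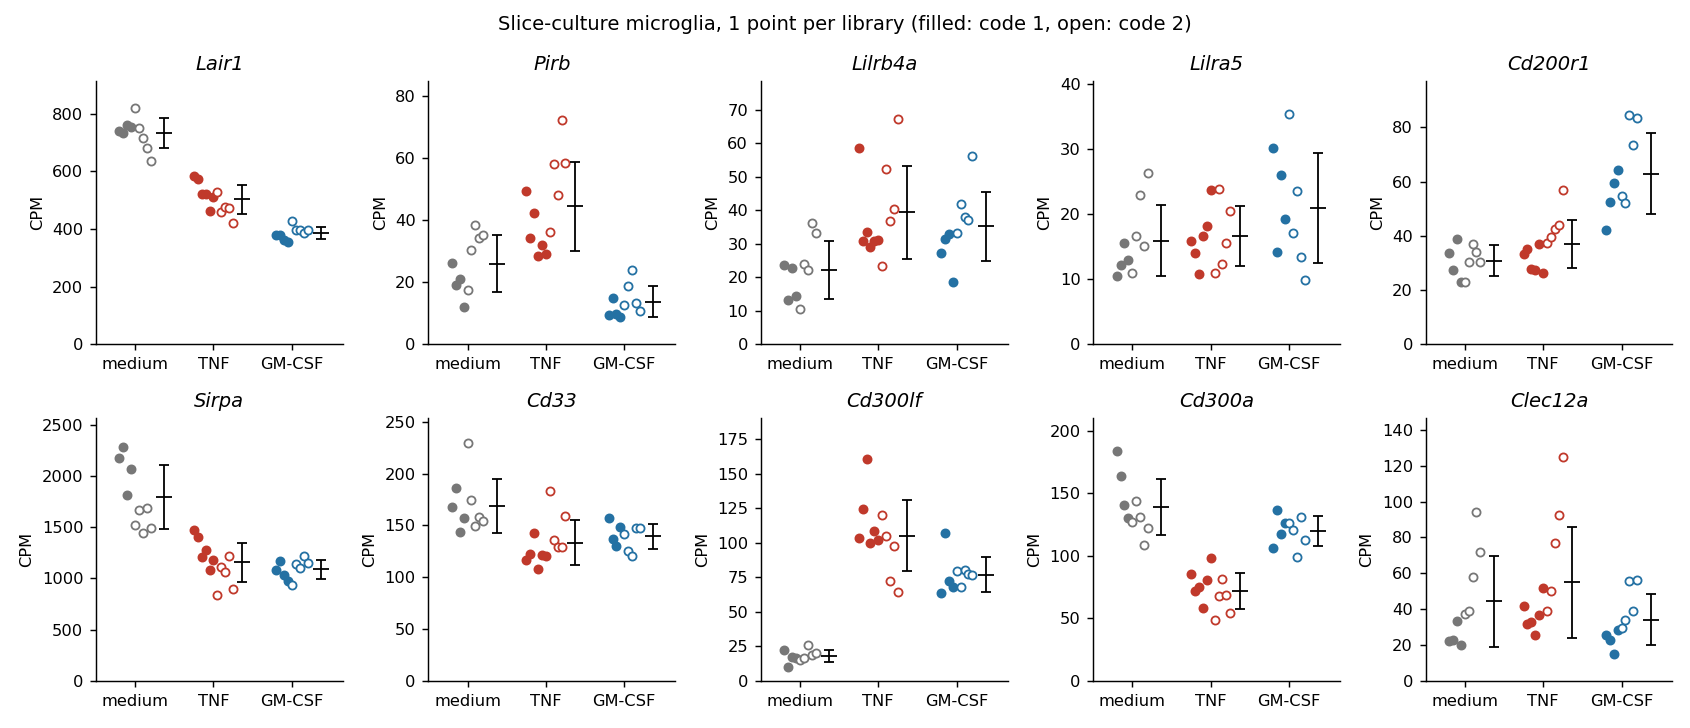
CPM of the 10 receptors in each slice microglia library, in medium (n = 9), TNF (n = 11) and GM-CSF (n = 9), with a bar for the mean and SD, and filled or open points for title codes that begin with 1 or 2. Cd300lf lies above the medium range in all TNF and GM-CSF libraries, Lair1 below it in all of both, and Pirb sits higher with TNF and lower with GM-CSF.

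For GM-CSF, the growth factor of myeloid cells, 3 of the 10 members tested were called higher and 3 lower, beside 4.84% and 5.96% of the 11313 genes tested; here too the members were chosen with this contrast known. TNF and GM-CSF were set against the same 9 medium libraries. The median log2 fold change was -0.25 for the members and -0.04 for all genes.

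Lair1 was the member chosen for its lower level with GM-CSF, at 353 to 427 CPM (median 387) against 635 to 820 in medium. The log2 fold change was -0.92 ± 0.060 (SE), a 1.89-fold difference, with all 9 libraries below every medium library and within each of the 4 title codes a difference of -1.07 to -0.78. The -1.07 was in code 1B, which held 1 medium library. Pirb fell by 0.93 on the log2 scale (SE 0.22), to 8.86 to 24.0 CPM (median 12.5), and 4 of 9 GM-CSF libraries lay below every medium library. Sirpa fell by 0.72 on the log2 scale (SE 0.095), to 933 to 1216 CPM (median 1100), all 9 below every medium library.

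Cd200r1 (chr16:44765736-44794978), the receptor for CD200, rose with GM-CSF from 22.9 to 38.7 CPM in medium to 42.0 to 84.7 (median 59.7). The log2 fold change was 1.03 ± 0.15 (SE), with all 9 libraries above every medium library. Cd300lf rose by 2.09 ± 0.15 (log2, SE), to 63.8 to 107 CPM (median 76.4), again without overlap. Lilrb4a rose by 0.67 ± 0.22 (log2, SE), to 18.6 to 56.2 CPM (median 33.2), with 4 of 9 libraries above the medium range, and this call was lost in 4 of 16 alternatives, at 0.59 in codes 1A and 1B alone, 0.72 in 2A and 2B alone, 0.66 without 1A and 0.55 without 2A.

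Lilra5 (log2 fold change 0.40 ± 0.22, SE), Cd33 (-0.28 ± 0.089), Cd300a (-0.22 ± 0.11) and Clec12a (-0.38 ± 0.32) were not called with GM-CSF. Their GM-CSF libraries overlapped the medium range, at 9.89 to 35.4 CPM for Lilra5, 121 to 158 for Cd33, 99.3 to 137 for Cd300a and 14.7 to 56.5 for Clec12a.

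TNF set directly against GM-CSF, which needs no medium library, separated 3 members. Over the 11313 genes tested, 8.25% were called higher with TNF and 7.96% lower. Pirb was higher with TNF by 1.70 ± 0.21 (log2, SE), a 3.25-fold difference with all 11 TNF libraries above every GM-CSF library. Cd200r1 was lower with TNF by a log2 fold change of -0.77 ± 0.14, with 8 of 11 TNF libraries below every GM-CSF library. Cd300a was lower by -0.74 ± 0.10, with all 11 below. Lair1 was 1.30-fold higher with TNF (log2 fold change 0.38 ± 0.057), 10 of 11 TNF libraries lying above every GM-CSF library, and was under the fold limit. Cd300lf (0.45 ± 0.13), Sirpa (0.09 ± 0.091), Cd33 (-0.07 ± 0.085), Lilrb4a (0.16 ± 0.20), Lilra5 (-0.34 ± 0.21) and Clec12a (0.69 ± 0.31) were not called. With the title code as a block, Clec12a was at 0.74 and called higher with TNF, and it was higher with TNF within each of the 4 codes, by 0.47 to 0.95.

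Slice libraries carry a title code (1A, 1B, 2A or 2B) whose meaning is not stated (the libraries come from 4 independent experiments, but no source ties codes to them), and some members moved with it. Sirpa in medium was at 2087 ± 198 CPM (SD, n = 4) in libraries whose code begins with 1 and at 1561 ± 108 (n = 5) in those beginning with 2. With TNF, Sirpa was also higher in code 1 (1269 ± 146, n = 6) than in code 2 (1026 ± 157, n = 5). Such a gap was not seen with GM-CSF (1065 ± 81.5 and 1107 ± 106). Without the codes that begin with 1, the GM-CSF difference of Sirpa was -0.48 on the log2 scale and no longer called. Clec12a was at 24.6 ± 5.99 CPM in medium of code 1 and at 60.1 ± 23.7 in medium of code 2, at 36.8 ± 9.03 and 76.6 ± 34.2 with TNF, and at 22.9 ± 5.89 and 42.9 ± 12.4 with GM-CSF. Summed markers of monocytes and border macrophages were at 400 to 634 CPM (median 531) in code 1 and 556 to 1112 (median 852) in code 2 of medium, and at 446 to 758 (median 611) and 657 to 1272 (median 1050) with TNF. With GM-CSF these sums were at 348 to 765 (median 555) in code 1 and 464 to 997 (median 529) in code 2. The part of these markers in the Clec12a levels was not tested. Within each of the 4 codes, Cd300lf and Lilrb4a were higher than medium with both cytokines, Lair1, Sirpa, Cd33 and Cd300a were lower with both, and Pirb was higher with TNF and lower with GM-CSF. Code 1B held only 1 medium library, so its differences from medium rest on that library.

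**Figure D3:**
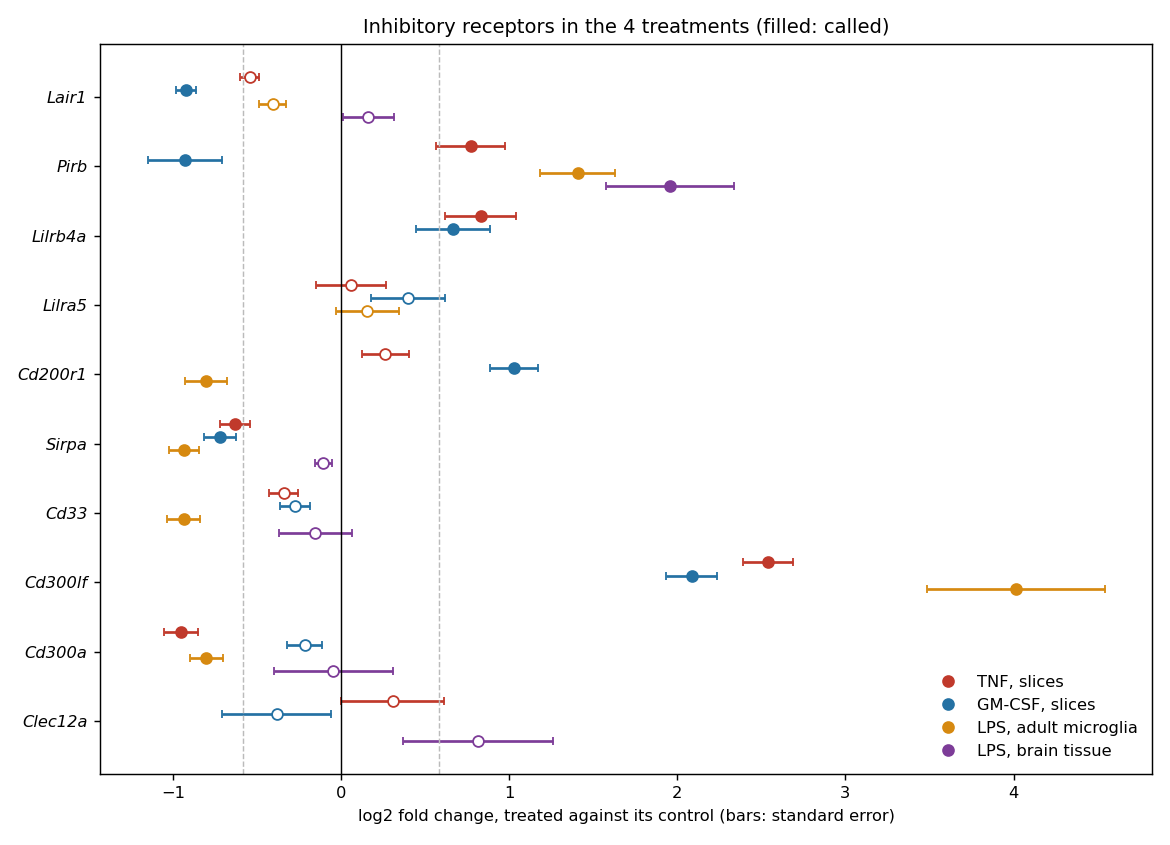
Log2 fold change of each receptor against its own control in the 4 treatments, with bars for the standard error, filled points for called differences and dashed lines at the fold limit of 1.5. Cd300lf is at 2.54, 2.09 and 4.01 in the 3 microglia comparisons, Pirb is on both sides of 0, and no member was called lower in brain tissue.

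In vivo, LPS was given to ask how systemic inflammation changes adult microglia. Of the members, 8 were tested, with 2 called higher and 4 lower, beside 14.4% and 13% of the 12987 genes tested, in a contrast known when the members were chosen. The median log2 fold change was -0.60 for these 8 and 0.01 for all genes. Clec12a was too low to test, with 0 to 4 counts in the LPS libraries, and Lilrb4a had no row.

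Cd300lf rose most: its PBS libraries held 3.59, 6.25, 7.57 and 5.34 CPM and its LPS libraries 121, 30.7, 135 and 78.2 CPM. The log2 fold change was 4.01 ± 0.53 (SE), a 16.1-fold difference without overlap. LPS replicate 2 stood below the other 3 LPS libraries, and without it the log2 fold change was 4.30. Pirb rose by 1.41 ± 0.22 (log2, SE), from 46.5, 51.7, 41.3 and 49.5 CPM to 174, 76.8, 122 and 129 CPM, again with LPS replicate 2 the lowest of its group, and by 1.58 without it.

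Sirpa, Cd33, Cd300a and Cd200r1 fell, each with all 4 LPS libraries below every PBS library. Sirpa held 4206, 3879, 3856 and 3669 CPM after PBS and 2371, 2029, 1808 and 1962 after LPS, and fell by 0.93 on the log2 scale (SE 0.088). Cd33 held 583, 565, 491 and 451 CPM after PBS and 282, 284, 291 and 235 after LPS, and fell by 0.94 (SE 0.096).

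Cd300a held 280, 275, 270 and 271 CPM after PBS and 196, 149, 142 and 142 after LPS, and fell by 0.80 on the log2 scale (SE 0.098). Cd200r1 held 28.2, 25.9, 25.5 and 29.3 CPM after PBS and 15.2, 19.6, 13.4 and 14.4 after LPS, and also fell by 0.80 (SE 0.12). Cd200r1 was thus called higher with GM-CSF in slices and lower with LPS in vivo.

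Lair1 held 1092, 1057, 996 and 1044 CPM after PBS and 787, 908, 753 and 713 after LPS. All 4 LPS libraries were below every PBS library, at a log2 fold change of -0.41 ± 0.080 (SE) that stayed under the fold limit. Lilra5 held 35.7, 31.8, 44.6 and 37.2 CPM after PBS and 50.9, 26.5, 40.1 and 48.4 after LPS, with overlapping groups.

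**Figure D4:**
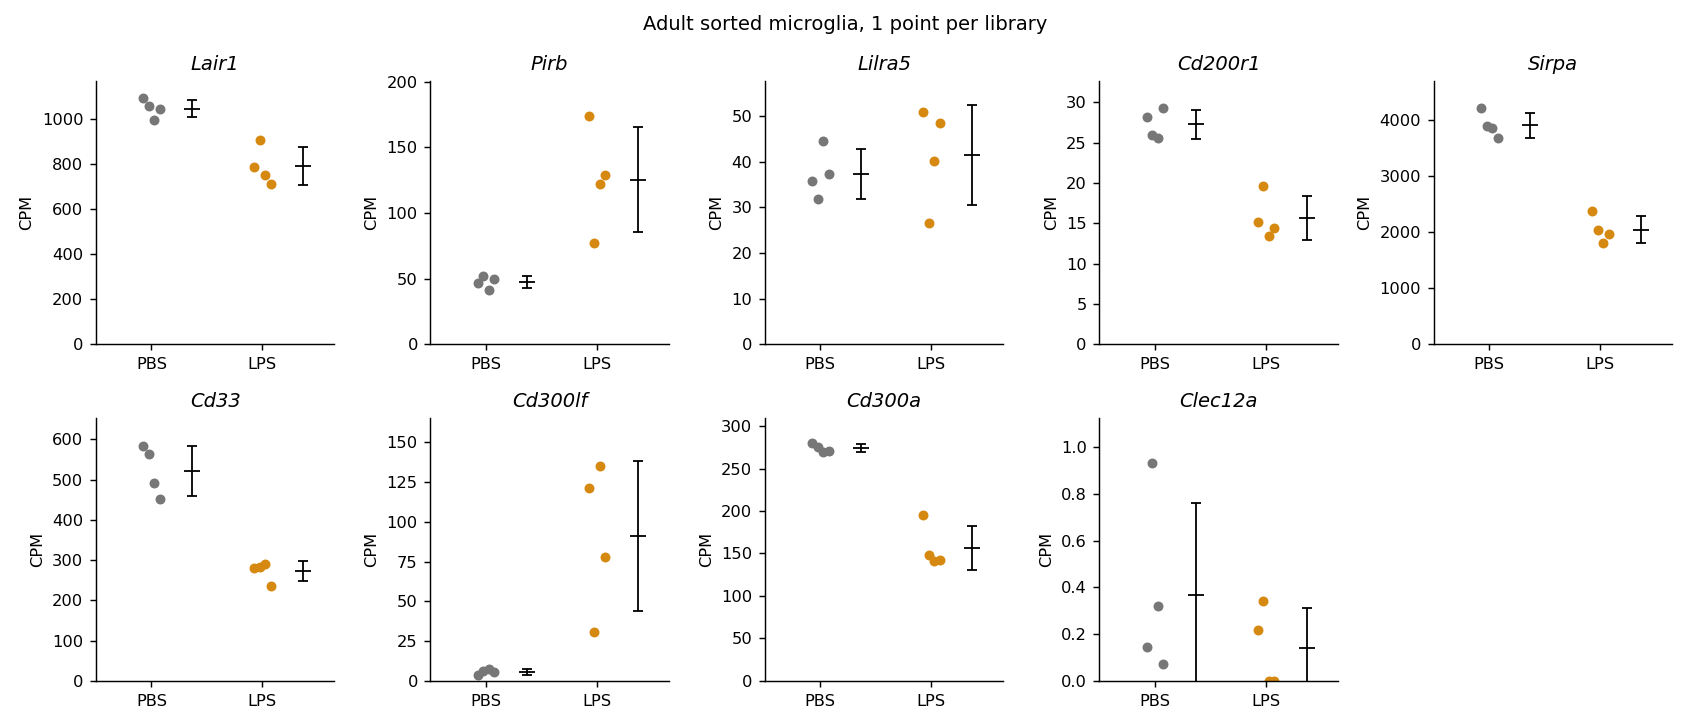
CPM of the 9 receptors with a row in adult sorted microglia after PBS and LPS, 1 point per library (n = 4 each) and a bar for the mean and SD, cut off at 0. The LPS libraries of Cd300lf and Pirb all lie above PBS, those of Sirpa, Cd33, Cd300a, Cd200r1 and Lair1 all lie below it, and Clec12a is near 0 in both.

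In the in vivo tables, where Lilrb4a had no row, another identifier that overlaps it in GENCODE vM21 held counts. Gm49339 (ENSMUSG00000062593, chr10:51480612-51496613), on the same strand, shares 1846 exon bases with Lilrb4a, 35.3% of its exons, and held 0 counts in all 29 slice libraries. It was at 4.88, 4.74, 4.83 and 3.89 CPM after PBS and at 239, 34.8, 147 and 202 CPM after LPS in adult microglia. The log2 fold change was 5.09 ± 0.65 (SE), and LPS replicate 2 was again the lowest. In GENCODE vM21, Gm49339 also spans the neighbor Lilr4b, which had no row of its own in the in vivo tables. That annotation named 47224 of the 47643 adult identifiers and 42929 of the 43411 brain identifiers. The annotation used to count those tables is not stated, so what Gm49339 covered there is not known. Reads of Lilrb4a and Lilr4b cannot be told apart there. How the slice counting assigned reads in the shared exons, or in the 131 bases that an antisense gene (Gm40645) shares with Lilrb4a, is not stated. In slices, Lilr4b had its own row and rose with TNF by 1.62 ± 0.19 and with GM-CSF by 0.79 ± 0.19 (log2, SE). Gm49339 and Lilr4b were added after their values were seen.

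Markers of other cells moved in these adult libraries as well. Summed markers of monocytes and border macrophages were at 16.03 to 22.1 CPM after PBS and 28.7 to 39.8 after LPS, and those of neutrophils at 33.0 to 70.2 and 2.99 to 8.68. Of the 8 neutrophil markers, 4 were high enough to test and 4 were called lower. Cxcr2, too low to test, went the other way, with all 4 LPS libraries above every PBS library. Of the 8 monocyte and border macrophage markers, 3 were high enough to test, of which 2 were called higher and 1 lower. Summed microglia markers went from between 52780 and 59160 CPM to between 38170 and 42870, and astrocyte markers from between 254 and 280 CPM to between 145 and 180. Among the 8 microglia markers, 2 were called lower, 1 higher (Itgam, log2 fold change 0.67) and 5 were not called. Of the 4 astrocyte markers, 2 were high enough to test. Slc1a3 was called lower (log2 fold change -0.74), whereas Aldh1l1 was not called (0.71). The part of all these markers in the receptor levels was not tested.

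In brain tissue, where receptor RNA of microglia is diluted by other cells, 6 members were tested, with 1 called higher and 0 lower, beside 2.63% and 0.55% of the 15083 genes tested. The median log2 fold change was 0.06 for the 6 members and 0.00 for all genes. Pirb held 6, 6, 7 and 7 counts (0.603, 0.583, 0.724 and 0.731 CPM) in untreated brains and 22, 9, 34 and 26 counts (2.32, 1.06, 4.11 and 2.92 CPM) after LPS. Pirb rose by 1.96 ± 0.38 (log2, SE) without overlap, on counts that are low.

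Lair1 held 6.53, 6.90, 6.21 and 7 CPM in untreated brains and 8.02, 7.66, 5.44 and 8.65 after LPS, and the groups overlapped. Sirpa, which neurons also express, held 426, 407, 412 and 429 CPM in untreated brains and 403, 417, 341 and 397 after LPS, at a log2 fold change of -0.10 ± 0.052 (SE). Cd33 held 5.43, 4.08, 4.97 and 5.02 CPM and 3.38, 3.77, 6.89 and 3.59, Cd300a was at 0.731 to 1.86 and 0.589 to 1.57 CPM, and Clec12a at 0.194 to 1.11 and 0.589 to 1.45 CPM, and none of these was called. Lilra5 (2 to 4 counts), Cd200r1 (1 to 5) and Cd300lf (0 to 19) were too low to test. Summed monocyte and border macrophage markers were at 6.63 to 8.38 CPM in untreated brains and 10.8 to 15.0 after LPS, and neutrophil markers at 1.36 to 2.59 and 4.47 to 9.21; their part in the Pirb level was not tested.

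**Figure D5:**
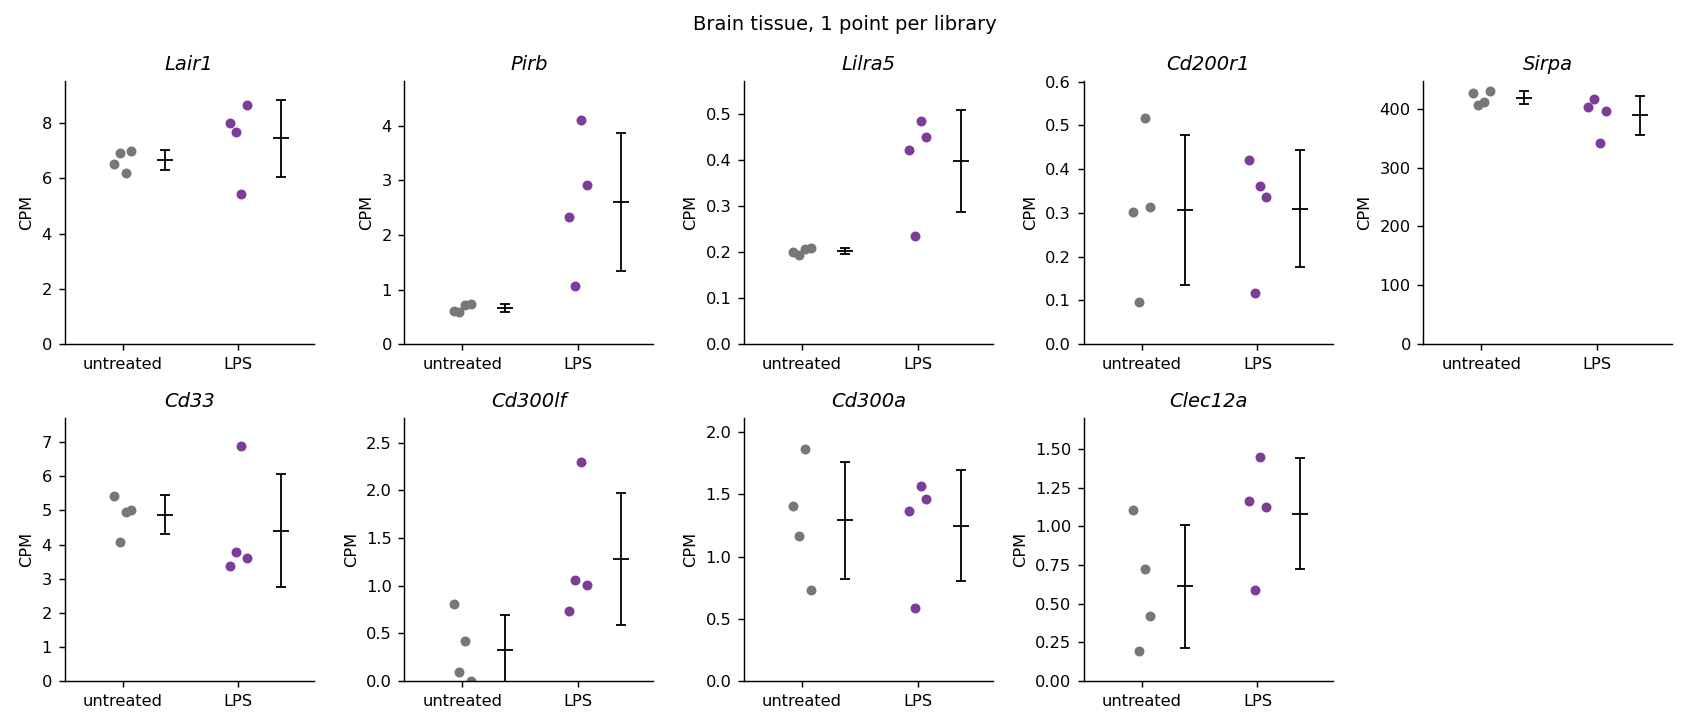
CPM of the 9 receptors with a row in brain tissue of untreated and LPS-treated mice, 1 point per library (n = 4 each) and a bar for the mean and SD, cut off at 0. All 4 LPS libraries of Pirb lie above every untreated library, whereas Sirpa, at 341 to 429 CPM, and Lair1, at 5.44 to 8.65 CPM, overlap between the groups.

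The LPS effect itself was compared between adult microglia and brain tissue by an interaction term over 16676 genes, of which 9.1% were called with a higher effect in microglia and 10.6% with a lower one. Of 9 members tested, 0 were called higher and 2 lower: Sirpa, with an effect lower in microglia by a log2 difference of -0.84 ± 0.12 (SE), and Cd33, by -0.79 ± 0.24. Without LPS brain replicate 3, the Cd33 difference was -0.51 and no longer called. The tissue, the library kit and the control (injected with PBS or uninjected) differ together in this comparison and cannot be told apart. Lair1 differed by -0.58 ± 0.16 and was under the fold limit, and Cd300lf by 2.11 ± 1.7 on sparse brain counts.

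Genes around the receptors were taken from 4 lists of known function, chosen with earlier results of these data known. Of their 77 genes, 74 had an identifier. The genes named are those of smallest adjusted p in each direction, so these adjusted p-values describe picked genes and are no independent support. Lilrb4b, listed among the other inhibitory receptors, was not matched under that symbol. The counts of that list leave it out, and Lilr4b, described above, is in none of the lists. The median log2 fold change with TNF was -0.29 for other inhibitory receptors, 0.75 for activating partners, -0.07 for downstream signaling and 0.42 for ligands, and with GM-CSF it was -0.46, 0.44, -0.13 and -0.43 in the same order. With LPS it was 0.49, 0.68, 0.02 and 0.46 in adult microglia and 0.69, 0.26, 0.18 and 0.25 in brain tissue. Over all genes tested it was -0.03 with TNF, -0.04 with GM-CSF, 0.01 with LPS in adult microglia and 0.00 in brain tissue. The shares of all genes called higher and lower were 9.1% and 11.7% with TNF and 4.84% and 5.96% with GM-CSF. With LPS these shares were 14.4% and 13% in adult microglia and 2.63% and 0.55% in brain tissue. Nothing is read from the counts of the lists. Of the other inhibitory receptors, 18 were tested in slices, and TNF raised 2 and lowered 7. With TNF, Pilra, a paired receptor for sialylated proteins, rose by 2.83 ± 0.13 (log2, SE; adjusted p = 2.42e-19, edgeR), and Klra2 by 2.22 ± 0.48 (adjusted p = 0.000272). Vsir, which encodes the checkpoint VISTA, fell by 1.54 on the log2 scale (SE 0.092, adjusted p = 6.48e-16), and Havcr2, which encodes TIM-3, fell by 1.02 (SE 0.12, adjusted p = 5.25e-09). GM-CSF raised 2 and lowered 6 of the 18, with Pilra (1.58 ± 0.13, adjusted p = 5.3e-12) and Siglecf (0.81 ± 0.27, adjusted p = 0.0241) higher and Cd72 (-1.14 ± 0.11, adjusted p = 3.98e-10) and Havcr2 (-0.81 ± 0.12, adjusted p = 4.04e-06) lower.

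In adult microglia, LPS raised 8 and lowered 5 of 17 other inhibitory receptors. Cd244a rose by 6.46 ± 0.24 (log2, SE; adjusted p = 2.32e-07, edgeR), from 2.80 to 4.47 CPM after PBS to 207 to 361 after LPS, and Milr1 rose by 1.79 ± 0.13 (adjusted p = 8.47e-07). Pecam1, an adhesion receptor with inhibitory tail motifs, fell by 1.59 on the log2 scale (SE 0.12, adjusted p = 1.42e-06) and Vsir by 0.71 (SE 0.063, adjusted p = 3.91e-06). In brain tissue, LPS raised 4 and lowered 0 of 9 tested, with Pecam1, which endothelial cells also express, higher by 1.09 ± 0.082 (adjusted p = 5.69e-07), and Cd244a called higher (adjusted p = 0.000148) from 0 to 1 counts in untreated brains to 9 to 15 after LPS.

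Of activating partners and adaptors, 17 were tested in slices, and TNF raised 7 and lowered 2. Clec5a, a DAP12-coupled lectin, rose with TNF by 2.10 ± 0.097 (log2, SE; adjusted p = 4.94e-19, edgeR), and Pilrb1 was called higher (adjusted p = 5.56e-12) from 0 to 4.38 CPM in medium to 13.6 to 38.5. Trem2, a lipid receptor coupled to DAP12, fell by 1.16 (SE 0.070, adjusted p = 8.05e-16), and Siglech by 1.56 (SE 0.25, adjusted p = 6.77e-06). GM-CSF raised 3 and lowered 2, with Trem1 (2.98 ± 0.32, adjusted p = 6.37e-09) and Pilrb1 (2.60 ± 0.35, adjusted p = 5.88e-07) higher and Trem2 (-0.89 ± 0.074, adjusted p = 1.92e-11) and Siglech (-1.23 ± 0.26, adjusted p = 0.000616) lower.

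Trem2 and Siglech also fell in adult microglia, by 0.97 (SE 0.088, adjusted p = 4.59e-06) and 1.70 (SE 0.25, adjusted p = 0.000797) on the log2 scale (edgeR), where LPS raised 7 and lowered 3 of 14 activating genes. Pilrb2 rose from 3 to 10 counts after PBS to 139 to 520 after LPS (adjusted p = 1.99e-05), and Trem3 from 0 to 2 counts to 11 to 46 (adjusted p = 5.4e-05). In brain tissue, LPS raised 2 and lowered 1 of 6, namely the adaptors Fcer1g (1.17 ± 0.16, adjusted p = 0.00022) and Tyrobp, which encodes DAP12 (0.64 ± 0.11, adjusted p = 0.00159), and Siglech (-0.72 ± 0.17, adjusted p = 0.0152).

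Of 12 genes of downstream signaling, TNF raised 3 and lowered 2. Fgr, a Src-family kinase, rose by 2.12 ± 0.15 (log2, SE; adjusted p = 4.74e-14, edgeR), while Inpp5d, which encodes SHIP-1, fell by 0.94 (SE 0.085, adjusted p = 2.35e-11) and the adaptor Dok3 by 0.86 (SE 0.17, adjusted p = 9.72e-05). GM-CSF raised 1 and lowered 2. Dok2, an adaptor that CD200R1 uses, rose by 1.73 ± 0.13 with GM-CSF (adjusted p = 3.71e-12), and Dok3 and Dok1 fell by 1.26 (SE 0.18, adjusted p = 1.57e-06) and 0.60 (SE 0.13, adjusted p = 0.000344).

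LPS raised 4 and lowered 0 of the 12 downstream genes in adult microglia, with Dok3 higher by 0.66 ± 0.093 (log2, SE; adjusted p = 0.000109, edgeR) and Dok2 by 2.65 ± 0.47 (adjusted p = 0.000805). Dok2 was thus called higher where Cd200r1 was called higher (GM-CSF) and where it was called lower (LPS). In brain tissue, LPS raised 3 and lowered 0 of 10, among them Ptpn6, which encodes SHP-1 (0.91 ± 0.15, adjusted p = 0.000894).

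Of the ligands, 12 were tested in slices, and TNF raised 5 and lowered 2. Cd47, the ligand of SIRP alpha, rose with TNF by 1.07 ± 0.083 (log2, SE; adjusted p = 5.52e-13, edgeR), and the MHC class I gene H2-K1, a ligand of PIR-B, by 1.09 ± 0.096 (adjusted p = 1.32e-11). C1qc, a chain of the LAIR1 ligand C1q, fell by 0.66 (SE 0.065, adjusted p = 1.8e-10) and Apoe by 1.08 (SE 0.21, adjusted p = 0.000143). GM-CSF raised 1 and lowered 1, with Fn1 higher by 1.00 ± 0.23 (adjusted p = 0.00134) and Apoe lower by a log2 fold change of -0.82 ± 0.23 (adjusted p = 0.00685).

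LPS raised 5 and lowered 0 of 11 ligands in adult microglia, with C1qa higher by 0.63 ± 0.077 (log2, SE; adjusted p = 3.85e-05, edgeR) and Fn1 called higher (adjusted p = 0.000318) from 2 to 10 counts after PBS to 284 to 2524 after LPS. In brain tissue, 7 of 18 rose and 0 fell, led by H2-K1 (1.78 ± 0.070, adjusted p = 4.34e-10) and H2-D1 (1.47 ± 0.067, adjusted p = 2.25e-09).

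Set directly against GM-CSF, TNF gave 4 higher and 3 lower calls among the 18 other inhibitory receptors, 4 and 0 among the 17 activating genes, 2 and 1 among the 12 downstream genes and 5 and 0 among the 12 ligands. Over all genes tested, 8.25% were called higher and 7.96% lower. Pirb and its ligand gene H2-K1 were both higher with TNF in this comparison, H2-K1 by 1.598 ± 0.098 (log2, SE; adjusted p = 1.33e-15, edgeR), and Cd47 by 1.49 ± 0.084 (adjusted p = 1.62e-16). Clec5a (1.66 ± 0.095, adjusted p = 2.26e-16), Pilrb1 (1.57 ± 0.30, adjusted p = 6.46e-05), Cd72 (1.36 ± 0.11, adjusted p = 7.54e-13), Pilra (1.24 ± 0.12, adjusted p = 7.4e-11) and Fgr (2.03 ± 0.15, adjusted p = 1.72e-13) were higher with TNF. Vsir (-0.92 ± 0.092, adjusted p = 3.28e-10), Siglecf (-2.22 ± 0.27, adjusted p = 2.06e-08) and Rasa1 (-0.73 ± 0.094, adjusted p = 9.07e-08) were lower.

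The LPS effect on these lists also differed between adult microglia and brain tissue, where tissue, kit and control again cannot be told apart. The effect was called higher in microglia for 1 and lower for 4 of 17 other inhibitory receptors, 1 and 2 of 15 activating genes, 1 and 3 of 12 downstream genes, and 3 and 6 of 18 ligands. Over all genes tested, 9.1% were called with a higher effect in microglia and 10.6% with a lower one. Higher effects in microglia were those of Cd72 (log2 difference 3.57 ± 0.56, SE; adjusted p = 0.000217, edgeR), Dok2 (2.64 ± 0.72, adjusted p = 0.00821), Apoe (1.28 ± 0.26, adjusted p = 0.00153), Fn1 (adjusted p = 3.99e-05) and Trem3 (adjusted p = 0.0111), the last on the few counts given above.

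Lower effects in microglia were those of Pecam1 (log2 difference -2.68 ± 0.15, SE; adjusted p = 7.25e-10, edgeR), Ceacam1 (-1.25 ± 0.20, adjusted p = 8.64e-05), the adaptors Tyrobp (-0.63 ± 0.11, adjusted p = 0.000188) and Fcer1g (-0.87 ± 0.16, adjusted p = 0.000246), the phosphatase genes Inpp5d (-0.77 ± 0.12, adjusted p = 3.55e-05) and Ptpn6 (-0.84 ± 0.15, adjusted p = 0.000171), and the C1q chains C1qc (-0.70 ± 0.11, adjusted p = 9.3e-05) and C1qa (-0.65 ± 0.12, adjusted p = 0.000427).

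Genes whose log2 fold changes were most like those of Lair1 over the 3 microglia comparisons (TNF, GM-CSF and LPS) were Mylip, Rel, Rptor, Akr1b10 and Smad7, among 7456 genes compared, at root mean square differences of 0.053, 0.094, 0.094, 0.10 and 0.11. Mylip was at -0.60, -0.96 and -0.35, beside -0.54, -0.92 and -0.41 for Lair1. TNF and GM-CSF share the medium libraries, so the first 2 values of each gene are not independent.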

How the data were processed

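The authors deposited 3 count tables on build mm10. Slice microglia values are whole read counts per gene, for which the submitters' processing notes name STAR 2.7.0a and featureCounts of Subread 1.6.4. Adult microglia and brain tissue values are expected counts (estimated counts with decimals) as deposited, with no aligner or counter named in the notes used here; they were rounded, which changed table totals by 0.00107% and 0.00113%. Microglia libraries were made by the authors with SMART-Seq v4 and Nextera XT kits and brain libraries with TruSeq mRNA, so the tables were not tested against each other except by an interaction of effects. In the brain table, 92 rows that name no gene held 0 counts and were left out. Library totals are in the report and set the precision: the common biological coefficient of variation was 0.281 in slices, 0.137 in adult microglia and 0.0672 in brain tissue.

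Samples were grouped from the labels. Genes passing filterByExpr (minimum count 10, minimum total 15) were fitted per table with edgeR 4.0.16 in R 4.3.3 (TMM, robust quasi-likelihood F test, Benjamini-Hochberg over all genes tested) and called at an adjusted p under 0.05 and a fold change over 1.5. Each SE is the size of the log2 fold change divided by the square root of its F statistic. The fit was tested on simulated data. Alternatives were DESeq2 1.42.0, limma-voom 3.58.1, other scalings and filters, blocks, title codes and left-out libraries. The members, the 4 gene lists and the markers were chosen with earlier results of these data known. All members are named, with up to 2 called genes per list, comparison and direction by smallest adjusted p, and the 5 genes most like Lair1 among genes of at least 10 CPM in both controls. A gene of the downstream list is not reported here by name. The study gives the in vivo samples as independent mice; slice libraries are given as pooled from 4 independent experiments, but which library belongs to which is not stated, so libraries of 1 experiment were treated as separate replicates. No 2 replicates held identical values. Exon lengths, overlaps and coordinates are from GENCODE vM21 and promoters from RefSeq on GRCm38.p6.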

Additional observations from a re-analysis of the deposited data

Results flagged for a closer look

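Of 56 sets of CPM (a receptor in a group of 4 to 10 libraries), 5 held a library far from the others by Dixon's test, which chance gives in about 1 set of 20. Cd33 was at 229.5 CPM in medium replicate 5, above the next at 186, at 235.4 CPM in LPS microglia replicate 4, below the next at 282, and at 6.89 CPM in LPS brain replicate 3, above the next at 3.77. Cd300lf was at 107 CPM in GM-CSF replicate 2, above the next at 80.2, and Cd300a was at 195.6 CPM in LPS microglia replicate 1, above the next at 149.

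The LPS effect differed between adult microglia and brain tissue, by the interaction term, for Sirpa (log2 difference -0.8387) and Cd33 (-0.7877), both lower in microglia. Without LPS brain replicate 3, the library with the high Cd33 value, the Cd33 difference was -0.51 and no longer called.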

How the results depend on the processing

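Of 184 counts of called receptors or pathway genes recomputed under the alternatives, 177 stayed within 1.5 times the value reported. Without a fold limit, pathway calls went from 18 to 37 (GM-CSF against medium) and from 19 to 31 (TNF against GM-CSF), and receptor calls in the latter from 3 to 5. In codes 1A and 1B alone, receptor calls for TNF against GM-CSF were also 5, with Cd300lf and Clec12a added, and with the title code as a block they were 4, with Clec12a added. In brain tissue, receptor calls were 2 with no low-count filter, where Cd300lf joined Pirb, and 0 with a minimum count of 50, which left Pirb untested. With limma-voom, 1 receptor (Sirpa) kept a called interaction, against 2 as reported. Leaving out 1 library at a time gave 6 to 6 receptor and 27 to 34 pathway calls in adult microglia, 1 to 1 and 16 to 18 in brain tissue, and 2 to 3 receptors for the interaction. The Lilrb4a call with GM-CSF was lost in codes 1A and 1B alone, in 2A and 2B alone, and without 1A or 2A, that with TNF in 2A and 2B alone, and the Pirb call with TNF without 1A. Lair1 with TNF was called in 4 of 16 alternatives (log2 fold change -0.61 to -0.49 over the 16), and for Lair1 the LPS interaction was called in 9 of 24. No called receptor value changed sign. Same-numbered libraries of different groups correlated at -0.04 to 0.18 in slices (7 of 27 pairs best with their own number). In brain tissue they correlated at -0.08 to 0.04 and in adult microglia at -0.03 to 0.02. Replicate numbers were not taken as pairs. In slices they often cross the running numbers of the titles, so the check does not cover pairing by title, which was not fitted. Medium and TNF replicates 1 to 4, with consecutive title numbers, correlated at 0.11 to 0.18, each best with its own number. Medium and GM-CSF replicates 5 to 9, with close title numbers, correlated at 0.02 to 0.11, only 8 and 9 best with their own. With the replicate number as a block, receptor calls stayed at 5, 6, 3, 6, 1 and 2 (TNF, GM-CSF, TNF against GM-CSF, adult LPS, brain LPS, interaction), and no receptor call changed; where a call was lost, the cause was not tested. Depth limits the brain values of Pirb, Cd300lf, Clec12a, Lilra5, Cd200r1 and Cd300a, on under 35 counts each.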
